A study of Mus musculus with 2 samples.

Results

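The growth hormone (GH) receptor, STAT5 and IGF1 axis of the liver was followed through 9 genes, *Ghr*, *Stat5a*, *Stat5b*, *Igf1*, *Igfals*, *Socs2*, *Cish*, *Bcl6* and *Onecut1*. They were picked by symbol from the 53241 distinct symbols listed for each liver library, and each matched 1 row. In the comparison of iFIRKO with control liver, the genes of the feedback inhibitors *Socs2* and *Cish* were 2.93-fold and 2.01-fold lower, while *Ghr* and *Igf1* stood at 0.997 and 0.946 of their control level. *Stat5b*, *Igfals* and *Bcl6* stood at 0.707, 0.765 and 1.33 of theirs, within 1.5-fold.

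Growth hormone from the pituitary binds the receptor encoded by *Ghr* on hepatocytes, which activates the kinase JAK2 and then the transcription factors STAT5A and STAT5B. Active STAT5 enters the nucleus, binds DNA at sites of the form TTCNNNGAA and drives genes for IGF1, its serum partner and the inhibitors that shut the receptor down again. The axis controls body growth, and in rodents the pulsed release of GH in males, against a steadier release in females, gives the liver its sex-biased gene expression.

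Liver mRNA was sequenced from 1 control and 1 iFIRKO library. The iFIRKO mice were Adipoq-CreERT2; Insr flox/flox, in which tamoxifen activates a Cre recombinase driven by the adiponectin promoter and the insulin receptor gene is deleted in adipocytes. The control mice are labelled WT, and the paper's methods describe them as IR flox/flox. Both were male, received tamoxifen at 100 mg/kg on 5 days from 7 weeks of age, and were analysed 3 days after the last dose. Whether a library came from 1 mouse or a pool is not stated in the sources used here, so no difference has a replicate check and no p-value was computed. The comparison asks how liver gene expression differs after deletion of the insulin receptor gene in adipocytes.

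Values are normalized reads, the deposited log2 values returned to the linear scale. The libraries held an estimated 21138484 and 20652740 read pairs on genes. A gene counted as measured where either library reached 41.8 normalized reads (a CPM of 1), as 13400 genes did, among them the 9 axis genes, and called higher or lower past 1.5-fold. The log2 fold change was taken after adding 4.18 normalized reads to both values, and its median over the measured genes was 0.0075. Intervals are 95% exact Clopper-Pearson intervals of the ratio from estimated read pairs, and they cover counting error only. The hepatocyte markers were present, with *Alb* at 4167154 normalized reads in control and 3944155 in iFIRKO liver. *Insr*, whose deletion in adipocytes a liver library does not check, stood at 4246 and 3692.

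*Ghr*, the receptor at the head of the axis (ENSMUSG00000055737.12, chromosome 15 of GRCm38, 3317760 to 3583492, reverse strand), stood at 17557 normalized reads in control liver and at 17510 in iFIRKO liver. The libraries were nearly level, with a log2 fold change of -0.0039 and an interval from -0.047 to 0.039. *Ghr* was the 297th most abundant gene of the control library. The soluble GH-binding protein comes from the same gene, and gene-level values do not separate it from the receptor.

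*Stat5b* (ENSMUSG00000020919.11, chromosome 11, 100780731 to 100850724, reverse strand) encodes the STAT5 protein best known for male body growth and sex-biased liver expression. Its level was 4956 normalized reads in control and 3503 in iFIRKO liver. The log2 fold change of -0.50 (interval -0.59 to -0.41) did not pass the 1.5-fold threshold. *Stat5a*, the neighbouring paralog best known from the mammary gland (ENSMUSG00000004043.14, chromosome 11, 100859351 to 100885169, forward strand), had 2518 and 2104 normalized reads. Its log2 fold change was -0.26 (interval -0.38 to -0.14), and this interval lay wholly above that of *Stat5b*. Together the pair of genes had 7474 and 5608 normalized reads, a log2 fold change of -0.41 (interval -0.49 to -0.34). Of the 50-base words in the annotated *Stat5b* transcripts 11.0% also occur in *Stat5a*, and 8.21% of those of *Stat5a* occur in *Stat5b*, so part of their reads could be assigned to either gene. Per kb of exon, *Stat5b* stood at 895 normalized reads against 353 for *Stat5a* in control liver, and at 632 against 295 in iFIRKO liver. The ratio of *Stat5b* to *Stat5a* per kb was 2.53 in control and 2.14 in iFIRKO liver. *Stat5a* also shares 72 bases of exon with the opposite-strand gene *Stat3*, at the ends of both genes.

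The serum IGF1 complex was represented by 2 genes. *Igf1*, the hormone that carries much of the growth effect of GH and is made mainly by hepatocytes (ENSMUSG00000020053.18, chromosome 10, 87858265 to 87937042, forward strand), had 22703 normalized reads in control liver and 21475 in iFIRKO liver. Its log2 fold change was -0.080 (interval -0.12 to -0.042), a fold of 0.946. *Igfals* (ENSMUSG00000046070.9, chromosome 17, 24865997 to 24882010, forward strand) encodes the acid-labile subunit, which holds IGF1 and its binding protein in a long-lived serum complex. It had 7437 normalized reads in control liver and 5688 in iFIRKO liver, a log2 fold change of -0.39 (interval -0.46 to -0.32). The intervals of *Igf1* and *Igfals* did not overlap, and that of *Igfals* lay further below 0. Per kb of exon the pair was close in control liver, at 2292 normalized reads for *Igf1* and 2348 for *Igfals*, and apart in iFIRKO liver, at 2168 and 1796.

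**Figure D1:**
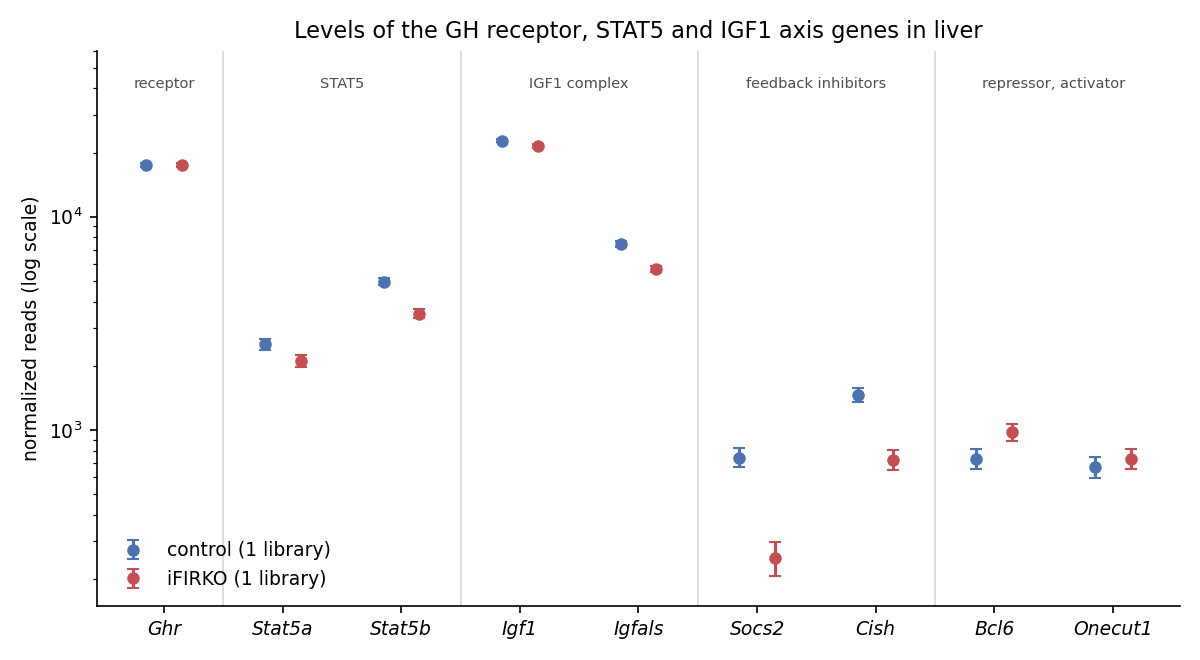
Normalized reads (log axis) of the 9 axis genes in the control library (blue) and the iFIRKO library (red), grouped by role, with 95% exact Poisson counting intervals as bars and 1 library per genotype. *Ghr* and *Igf1* lie nearly level between the libraries, whereas *Socs2* drops from 741 to 250 and *Cish* from 1461 to 723 normalized reads.

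The feedback inhibitors showed the largest folds of the axis genes. *Socs2* (ENSMUSG00000020027.18, chromosome 10, 95385362 to 95417180, reverse strand) encodes a suppressor of cytokine signalling that limits GH action, and mice without it grow large. It had 741 normalized reads in control liver and 250 in iFIRKO liver, a log2 fold change of -1.55 (interval -1.87 to -1.27). *Cish* (ENSMUSG00000032578.7, chromosome 9, 107296026 to 107302784, forward strand), a STAT5-induced member of the same family, had 1461 and 723 normalized reads, a log2 fold change of -1.01 (interval -1.20 to -0.83). Both intervals lay wholly past the 1.5-fold threshold, and together the pair had a log2 fold change of -1.17 (interval -1.33 to -1.02). Of the 13400 measured genes, 50 had a lower log2 fold change than *Socs2* and 257 a lower one than *Cish*. Among the 8380 genes where either library reached a CPM of 10, these numbers were 9 and 57. Low genes scatter more, which the plot against level shows.

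Of the 8 genes of the SOCS family, 7 were measured. *Socs2* and *Cish* were lower and none was higher, where 7.28% and 4.46% of all measured genes were. *Socs3*, induced chiefly through STAT3 by cytokines of the interleukin-6 type, had 624 normalized reads in control liver and 573 in iFIRKO liver, a log2 fold change of -0.12 (interval -0.36 to 0.12). *Socs4*, *Socs5*, *Socs6* and *Socs7* had log2 fold changes of -0.061, -0.022, -0.28 and 0.30. The intervals of all 5 lay wholly above those of *Socs2* and *Cish*. *Socs1* was below the minimum, at 23.8 and 16.1 normalized reads. Of the 50-base words in the annotated *Socs2* transcripts 4.53% also occur in other genes, so part of its reads could be assigned elsewhere. Of the 100-base words 2.31% do, all in *Gm9847*, which had 23.8 and 11.9 normalized reads.

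**Figure D2:**
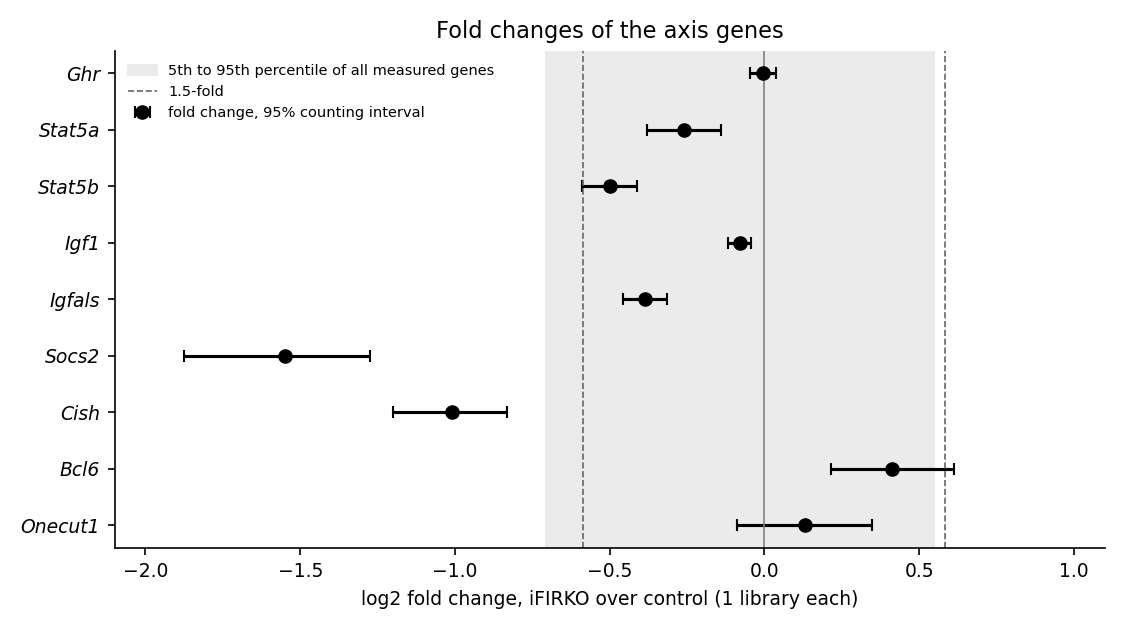
Log2 fold change of each axis gene, iFIRKO over control, with its 95% exact Clopper-Pearson counting interval as a bar. The grey band spans the 5th to the 95th percentile of the 13400 measured genes (-0.71 to 0.55) and dashed lines mark 1.5-fold. The points of *Socs2* and *Cish* lie left of the band and those of the other 7 genes inside it.

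*Bcl6* and *Onecut1* encode transcription factors tied to the axis. BCL6 is a repressor that can bind the same sites as STAT5, and GH is known to lower its gene in liver. *Bcl6* (ENSMUSG00000022508.5, chromosome 16, 23965052 to 23988852, reverse strand) had 731 normalized reads in control liver and 974 in iFIRKO liver. The iFIRKO value was 1.33 times the control value, with a log2 fold change of 0.41 and an interval from 0.22 to 0.61. No other axis gene had an interval wholly above 0. *Onecut1*, also named hepatocyte nuclear factor 6 and known to be induced by GH (ENSMUSG00000043013.10, chromosome 9, 74861921 to 74891781, forward strand), had 668 and 732 normalized reads. Its log2 fold change of 0.13 had a counting interval from -0.088 to 0.35, which included 0. The non-coding gene *Gm20649* on the same strand covers 52.8% of the annotated exon bases of *Onecut1*, and how the authors' counting split such reads is not stated. *Gm20649* had 436 and 405 normalized reads, and the sum with *Onecut1* was 1104 and 1137.

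In all, 2 of the 9 axis genes were lower past 1.5-fold, where 7.28% of the measured genes were, and 0 were higher, where 4.46% were. Among the 8380 more abundant genes, to which all 9 belong, 3.54% were lower and 2.42% higher. Their median log2 fold change was -0.26, against 0.0075 over the measured genes. The interval lay below 0 for 6 of the axis genes, above 0 for *Bcl6*, and included 0 for *Ghr* and *Onecut1*. Per kb of exon in control liver, *Igfals*, *Igf1* and *Ghr* stood at 2348, 2292 and 1939 normalized reads, followed by *Stat5b* at 895. The remaining genes ran from *Stat5a* at 353 through *Cish* at 228, *Onecut1* at 162 and *Bcl6* at 109 to *Socs2* at 77.8. In iFIRKO liver the order per kb changed in several places, with *Igf1* first at 2168, *Ghr* next at 1934, *Bcl6* at 145 above *Cish* at 113, and *Socs2* last at 26.3. Neighbours in these orders differed beyond their exact Poisson counting intervals, except *Igfals* and *Igf1* in control liver. The lengths are those of GENCODE M21, which may not be the annotation the authors counted on. Each length joins the exons of all annotated transcripts of a gene, 9531 bases for *Socs2* and 6419 for *Cish*. It can exceed the length of the transcripts present in liver, which lowers the level per kb. The intervals do not cover this, and the orders were not tested with other lengths.

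**Figure D3:**
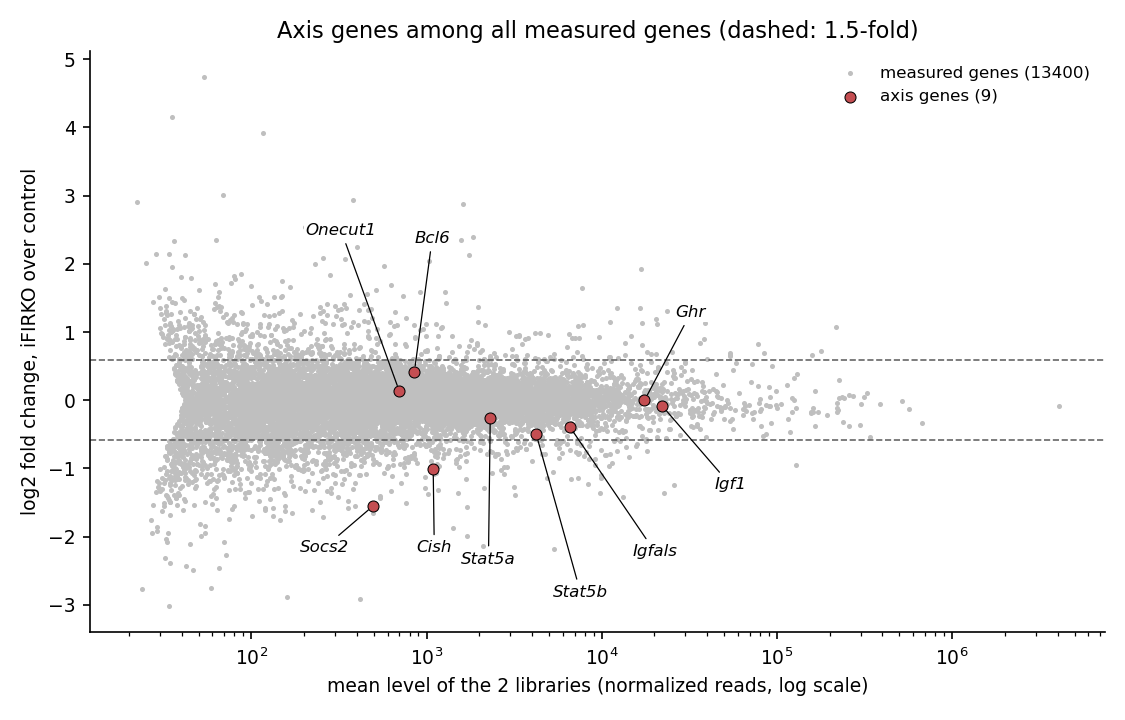
Log2 fold change, iFIRKO over control, against the mean level of the 2 libraries (normalized reads, log axis) for the 13400 measured genes in grey, with the 9 axis genes in red and dashed lines at 1.5-fold. *Socs2* and *Cish* lie at the lower edge of the cloud at their level, and the other 7 genes lie between the dashed lines.

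The start sites of the axis genes were searched for the STAT5 motif TTCNNNGAA, whose letters read the same on both strands and which other STAT proteins also bind. RefSeq windows of GRCm38.p6, from 250 bases before to 50 after a start site, were found for 8 of the 9 genes, all but *Socs2*, in 14 windows. A match was present in 5 of the 14 windows, and in 8.30% of all 32851 windows. These 5 windows belong to *Igfals*, *Cish* and *Bcl6* only, since start sites of 1 gene were counted as separate windows. The axis genes were picked for their ties to STAT5, so the shares are a description only. The windows with 2 or more matches were those of *Cish* and of 1 start site of *Bcl6*, and 0.457% of all windows held as many. The 5 sequences printed here hold the tandem match of *Cish*, the 3 matches of the *Bcl6* window and the match of *Igfals* nearest to a start site, with the motif in capitals and each read 5′ to 3′ on the strand of its gene.
*Cish*, chr9:107296654-107296683: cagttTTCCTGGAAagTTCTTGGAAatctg
*Bcl6*, chr16:23981433-23981461: aggccgcggcTTCCTGGAAagttacttct
*Bcl6*, chr16:23981387-23981415: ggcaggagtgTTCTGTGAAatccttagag
*Bcl6*, chr16:23981353-23981381: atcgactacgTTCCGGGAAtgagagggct
*Igfals*, chr17:24878163-24878191: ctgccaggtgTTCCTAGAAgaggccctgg

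The tandem match of *Cish* covers bases 1 to 20 of the RefSeq transcript start, inside an annotated exon and its UTR. Counted from the start site, which for this *Bcl6* window lies inside the gene, the *Bcl6* matches begin at positions -168, -122 and -88 and that of *Igfals* at -58. By GENCODE M21 these 4 matches lie in introns of their genes. The narrower form TTCCTNGAA, which BCL6 is also known to bind, was searched on both strands. It was present in 3 of the 14 windows, 1 each of *Cish*, *Bcl6* and *Igfals*, against 1.59% of all windows. *Cish* and *Bcl6*, the genes with repeated matches, had log2 fold changes of -1.01 and 0.41. No match lay in the windows of *Ghr*, *Igf1*, *Stat5a*, *Stat5b* or *Onecut1*, which says only that these letters are not in these windows.

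**Figure D4:**
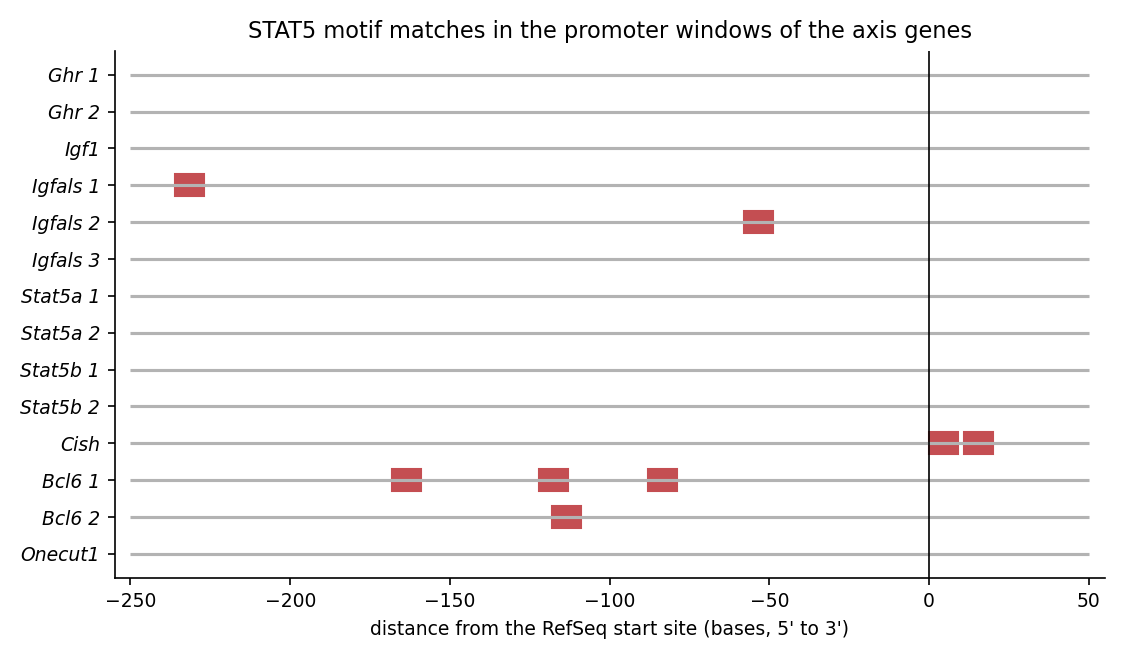
Matches to TTCNNNGAA (red blocks) in the 14 promoter windows of 8 axis genes, plotted by distance from the RefSeq start site in bases, with numbers after a gene for its alternative start sites in genomic order. The *Cish* window holds 2 adjoining matches at the start site and 1 *Bcl6* window holds 3.

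Between the receptor and STAT5 stand kinases, adaptors and phosphatases. Of 19 such partner genes 18 were measured, of which 2 were lower, 0 higher and 16 neither, with a median log2 fold change of -0.079. Over all measured genes 7.28% were lower and 4.46% higher, with a median of 0.0075. *Jak2*, the kinase bound to the GH receptor, had 779 normalized reads in control liver and 570 in iFIRKO liver, a log2 fold change of -0.45 (interval -0.68 to -0.23) that did not pass 1.5-fold. The genes that did were *Irs2*, an insulin receptor substrate, at -1.28 (3005 and 1232 normalized reads), and *Sirpa*, a receptor abundant on macrophages, at -0.77 (1677 and 979). *Socs7* (0.30), *Ptpn11* (0.20), the phosphatase SHP2, and *Ptpn1* (0.12), the phosphatase PTP1B, had the largest values. *Prlr*, the prolactin receptor, was the most abundant partner gene at 15432 and 12999 normalized reads, a log2 fold change of -0.25.

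In the STAT family, 6 of 7 genes were measured and none was higher or lower, where 4.46% and 7.28% of all measured genes were. *Stat5b* had the lowest log2 fold change of them. *Stat3* stood at -0.10, *Stat2* at -0.040 and *Stat6* at -0.0041. The interval of *Stat5b* lay below those of *Stat2*, *Stat3* and *Stat6*. *Stat4* was below the minimum, at 29.9 and 8.03 normalized reads.

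Of 13 genes for IGF ligands, receptors and carriers, 9 were measured, of which 2 were lower and 0 higher, with a median log2 fold change of -0.19. The shares over all measured genes were 7.28% lower and 4.46% higher. *Igfbp2* and *Igfbp1*, both known to be held down by insulin, were the lower genes, at -2.18 (8746 and 1928 normalized reads) and -1.41 (19284 and 7234). *Igfbp3*, the main serum carrier of IGF1, which in liver is made by sinusoidal cells, had 1017 and 1183 normalized reads, a log2 fold change of 0.22 (interval 0.045 to 0.39). It forms the serum complex with IGF1 and the subunit encoded by *Igfals*, and its interval lay above those of *Igf1* and *Igfals*. *Igfbp4* was nearly level at 42469 and 40755 normalized reads. The IGF1 receptor gene *Igf1r* had 137 and 139 normalized reads, with an interval from -0.48 to 0.52. *Igf2*, a fetal growth factor that adult mouse liver largely shuts off, was below the minimum at 7.94 and 1.51 normalized reads.

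Sex-biased liver genes depend on STAT5B and on the timing of GH pulses. Of 20 male-biased genes 18 were measured, of which 9 were higher, 2 lower and 7 neither, with a median log2 fold change of 0.50. Over all measured genes 4.46% were higher and 7.28% lower, with a median of 0.0075. Of the 9 higher genes 1, *Hsd3b5* (13.5 and 50.6 normalized reads), reached the minimum through the iFIRKO library only. *Cyp4a12a* and *Cyp4a12b*, fatty acid hydroxylases that are near-identical copies, had 386 and 84.9 normalized reads in control against 2862 and 680 in iFIRKO liver. *Elovl3*, a fatty acid elongase, stood at 2.38. The most abundant male-biased genes by level went both ways, with *Serpina1e* at -0.54, *Mup3* at 0.67 and *Mup20* at 0.89. *Selenbp2* (13470 and 6321 normalized reads) and *Cyp7b1*, an oxysterol hydroxylase (7069 and 3409), were the lower genes, at -1.09 and -1.05. The separate values of *Mup*, *Serpina1* and *Cyp4a12* genes are uncertain, since copies can share reads. The count of higher genes, which holds *Cyp4a12a*, *Cyp4a12b*, *Mup3*, *Mup7* and *Mup20*, is uncertain for the same reason.

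Of 24 female-biased genes 23 were measured, of which 5 were higher, 7 lower and 11 neither, with a median log2 fold change of -0.23. The shares over all measured genes were 4.46% higher and 7.28% lower. Of these genes 1 higher and 1 lower reached the minimum through 1 library only. *Slc22a26*, an organic anion transporter, stood at -1.99 and *A1bg* at -1.57. *Acot3*, an acyl-CoA thioesterase, stood at 0.67 and *Slc22a29* at 0.94. *Hao2* had 1.99 normalized reads, 1 read pair, in control and 42.3 in iFIRKO liver, an interval of the log2 ratio from 1.77 to 9.78, and was the higher gene measured through the iFIRKO library only. The most abundant female-biased genes were within 1.5-fold, with *Cyp2b9* at 0.14, *Cyp2a4* at 0.16 and *Cyp17a1* at -0.23. *Cux2*, a female-biased repressor of male-biased genes, had 839 and 485 normalized reads, a log2 fold change of -0.78.

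The last list held 8 lipid genes known to be raised in livers that lack the GH receptor or STAT5. Of these 7 were measured, and 5 were higher and 1 lower, with a median log2 fold change of 0.91. The shares over all measured genes were 4.46% higher and 7.28% lower. Of the 5 higher genes 2, *Mogat1* and *Cidec*, reached the minimum through the iFIRKO library only, so they had to differ, and nothing rests on the count. *Mogat1*, a triglyceride synthesis enzyme, had 11.9 normalized reads in control liver and 126 in iFIRKO liver, a log2 fold change of 3.02 (interval 2.21 to 4.91). *Cidec*, a lipid droplet protein, had 17.9 and 108 normalized reads (2.35), and *Plin4*, a droplet coat protein, 698 and 1883 (1.43). *Pparg*, the nuclear receptor that drives fat storage, had 358 and 677 normalized reads, and *Cd36*, a fatty acid uptake protein, 2635 and 4955, each at 0.91. *Lpl*, lipoprotein lipase, was lower at -0.60 and *Vldlr*, a lipoprotein receptor, was at 0.46. *Cidea* was listed at 0 in both libraries.

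**Figure D5:**
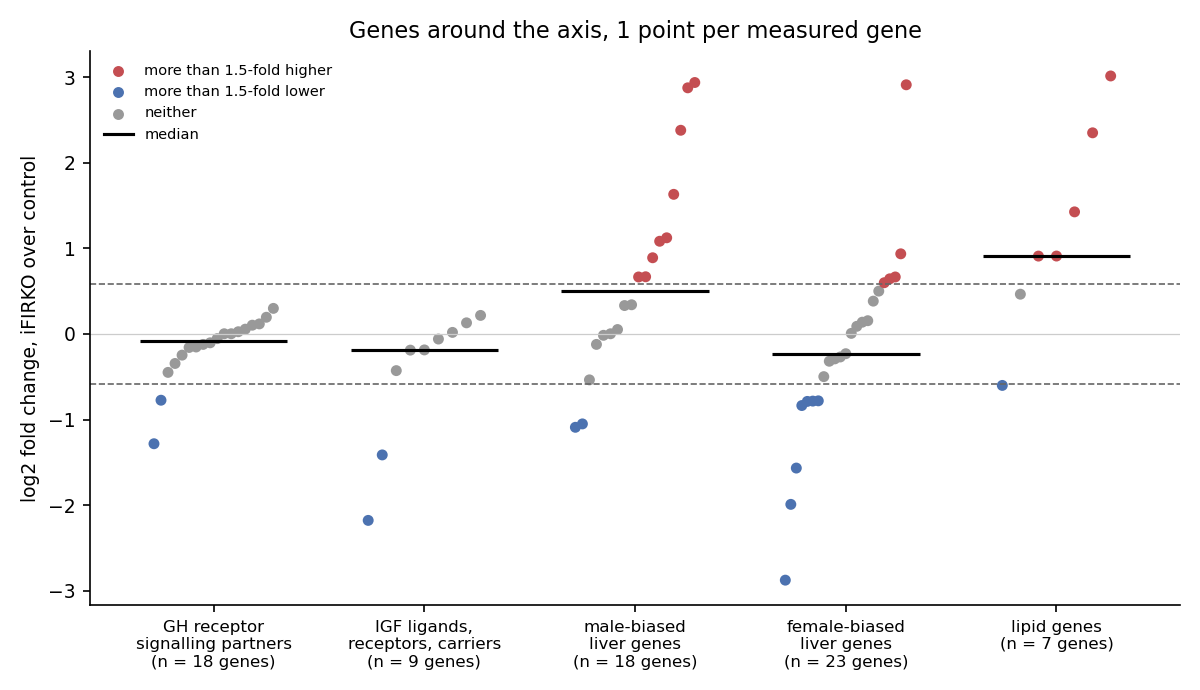
Log2 fold change, iFIRKO over control, of each measured gene in 5 lists around the axis, with 1 point per gene, black bars at the list medians and dashed lines at 1.5-fold. The medians were -0.079, -0.19, 0.50, -0.23 and 0.91 from left to right, and points spread on both sides of 0 in every list.

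Markers of other cell types moved between the libraries. Over all measured genes 7.28% were lower past 1.5-fold and 4.46% higher. Summed over the lists, Kupffer cell and macrophage markers went from 30092 to 19564 normalized reads with 5 of 8 measured genes lower, and endothelial markers from 11937 to 9162 with 2 of 8 lower. B cell markers went from 721 to 312 with 4 of 5 measured genes lower. T and NK cell markers went from 306 to 156, and the 2 measured of 8 were lower. Neutrophil markers went from 399.7 to 125, and the 2 measured of 6 were lower. Of the markers of these last cell types below the minimum, *Cd8a*, *Ngp* and *Ly6g* had more normalized reads in iFIRKO liver and the rest fewer. Erythroid markers went from 13455 to 27006 with 6 of 6 higher. Of the lower genes 2 B cell, 1 T and NK cell and 1 neutrophil marker, and of the higher ones 1 erythroid marker, reached the minimum through 1 library only. Stellate cell markers (10373 and 10623), cholangiocyte markers (2347 and 2026) and the adipocyte markers had no measured gene past 1.5-fold. Of the adipocyte markers, *Lep* was listed at 0 in both libraries and *Adipoq* at 0 in control and 2.01 normalized reads in iFIRKO. Of 10 hepatocyte markers 9 were found, with 1 higher and 1 lower and sums of 5292055 and 4961693. Leukocytes and endothelial cells also use *Stat5a*, *Stat5b*, *Cish*, *Socs2* and *Bcl6*. The part of these cells, and of the erythroid cells whose markers were higher, in the values of the axis genes was not tested. In bulk liver RNA, fewer cells of a type and less RNA per cell cannot be told apart.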

How the data were processed

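Liver mRNA of 1 control and 1 iFIRKO library was analysed, grouped by sample title. Stranded TruSeq libraries were sequenced on a NovaSeq instrument. The authors deposited log2 values of a normalized read count for each gene symbol, in which counts of 1 or less are 0. The build is mm10 per the submitters' processing notes, and aligner, counter, annotation and use of strand are not given in the sources used here, so overlapping genes are uncertain. After a return to the linear scale, the commonest low value was taken as 1 read pair, or 2 reads. Only 51.7% and 54.9% of values under 10 pairs were then whole reads within 0.02 of a read, so depths are estimates and no count test was run.

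The members and lists were chosen with earlier results of these data known, and the lists were written from general knowledge. Every axis gene was named, and of each other pathway list up to 3 genes by highest, 3 by lowest fold change and 3 by level. *Cux2*, *Pparg* and others outside that rule were named after their values were seen. The planned protein comparison was replaced by shared words of 50 and 100 bases in GENCODE M21 transcripts. Alternatives were other pseudocounts, minimums, scalings and a fold of 2. Results for a pair of list genes are not reported here. Calls and intervals were tested on simulated libraries of whole read pairs drawn with counting error only. Such libraries say nothing about variation between mice or about values that are not whole reads. Tables and intervals were made with pandas 2.3.3, scipy 1.17.1 and numpy 2.4.6 in Python 3.11.15, and plots with matplotlib 3.10.9.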

Additional observations from a re-analysis of the deposited data

How the results depend on the processing

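Every axis gene kept its direction and stayed within its counting interval with no pseudocount or with one of a CPM of 1, and under median-ratio scaling, TMM scaling and a total without the 20 most abundant genes. *Socs2* ran from -1.56 to -1.42, *Cish* from -1.02 to -0.97, *Stat5b* from -0.51 to -0.50 and *Bcl6* from 0.39 to 0.41 on the log2 scale. Under these and with a fold above 2, a minimum CPM of 5, a minimum to be met by both libraries or none, 2 axis genes were lower and 0 higher. The number of all measured genes past the threshold, 597 higher and 976 lower, went to 371 and 576 with a pseudocount of a CPM of 1, 1960 and 2620 with no minimum, 288 and 440 with a minimum CPM of 5, and 209 and 267 with a fold above 2. The list medians stayed on their side of 0, but with no minimum the female-biased list went from -0.23 to -0.14, the SOCS family from -0.12 to -0.20 and the IGF list from -0.19 to -0.12, each by more than 1.5 times. Over all alternatives the male-biased list ran from 0.34 to 0.51, the female-biased from -0.29 to -0.14, the STAT family from -0.26 to -0.18, the partner genes from -0.10 to -0.076 and the lipid genes from 0.90 to 0.92. Summing the rows of a symbol was not run, since each axis gene has 1 row. No paired analysis was possible because there is 1 library per genotype, and for the same reason no library could be left out. With 124 read pairs in the iFIRKO library, *Socs2* had the widest interval of the axis genes.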

Other observations

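The STAT5 motif of the *Cish* and *Bcl6* windows was also counted over all genes. Of the 9903 measured genes with a promoter window, 851 had a match to TTCNNNGAA in 1 or more windows, and 87 of these (10.2%) were lower and 34 higher past 1.5-fold. Over all 9903 genes the shares were 6.76% lower and 4.34% higher, and over the 9052 genes with no match 6.43% and 4.37%. The median log2 fold change was -0.0089 with a match and 0.014 without. With 2 or more matches in 1 window, 54 genes were measured, of which 10 (18.5%) were lower and 0 higher, with a median of -0.12. *Cish*, at -1.01, and *Bcl6*, at 0.41, are among the 54. The other lower genes were *Gbp5* (248 and 122 normalized reads), *Gbp7* (1606 and 926), *Gdpd1*, *Stambpl1*, *Aldoc*, *Cpsf4l*, *Zfp94*, *Tlr6* and *Nrros*, named after their values were seen. Of these, *Gdpd1* (67.4 and 33.0) and *Tlr6* (61.6 and 39.0) reached the minimum through the control library only, so nothing rests on the count of 10. *Gbp5* and *Gbp7* encode guanylate-binding proteins known to be induced by interferon, and *Tlr6* and *Nrros* are used by macrophages, whose markers were lower in the iFIRKO library. The part of those cells in these counts was not tested, and every value compares 1 library with 1 library.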
